A study of Homo sapiens with 6 samples.

Results

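The hypoxia response genes described here are 10 members of the 19845 gene symbols counted in Molm13-Cas9+ cells, namely HIF1A, its prolyl hydroxylase genes EGLN1 and EGLN3, and the HIF target genes SLC2A1, SLC2A3, ADM, ANKRD37, VEGFA, PDK1 and KDM3A. They were taken from the table by gene symbol. SLC2A3, ADM and ANKRD37 had been chosen because they were lower in sgCOX4I1 libraries, so their values are given as a description and without a test, whereas the other 7 were chosen by function. Molm13 is an MLL-rearranged human acute myeloid leukemia cell line, and every culture carried the Cas9 nuclease, was transduced with a lentiviral guide vector and was selected with puromycin. The 3 sgCtrl cultures received guides against non-essential sequences and the 3 sgCOX4I1 cultures received guides against COX4I1, a subunit of mitochondrial Complex IV. Each library, numbered #1 to #3 within its group, is a transduced population with its own guide, so the spread within a group includes differences between guides. The culture methods describe a humidified CO2 incubator and give no low-oxygen step for any group.

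The hypoxia-inducible factors (HIF) are transcription factors made of an oxygen-regulated alpha subunit, encoded by HIF1A or EPAS1, and a stable partner encoded by ARNT. Prolyl hydroxylases of the EGLN family use oxygen to mark the alpha subunit, and the VHL ubiquitin ligase then sends it for degradation, so HIF activity is set mainly at the level of protein stability. HIF1A mRNA is therefore a poor gauge of HIF activity, and the mRNA of its targets, such as glucose transporters, angiogenic factors, PDK1 and some of the hydroxylases themselves, is the usual readout.

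HIF binds the letters ACGTG or GCGTG in DNA, and short promoter stretches of ADM, ANKRD37 and EGLN1 are shown because the first pair were lower in sgCOX4I1 libraries while EGLN1, which also holds such a match, differed little between the groups. The stretches come from RefSeq promoters on GRCh38.p14, run 5′ to 3′ on the strand of the gene, leave out every base that GENCODE 44 places in an exon, and carry matches to either motif, on either strand, in capitals.
ADM, chr11:10304878-10305072: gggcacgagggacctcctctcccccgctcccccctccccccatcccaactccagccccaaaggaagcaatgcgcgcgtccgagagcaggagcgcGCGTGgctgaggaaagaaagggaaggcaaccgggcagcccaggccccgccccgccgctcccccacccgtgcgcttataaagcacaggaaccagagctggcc
ANKRD37, chr4:185396591-185396810: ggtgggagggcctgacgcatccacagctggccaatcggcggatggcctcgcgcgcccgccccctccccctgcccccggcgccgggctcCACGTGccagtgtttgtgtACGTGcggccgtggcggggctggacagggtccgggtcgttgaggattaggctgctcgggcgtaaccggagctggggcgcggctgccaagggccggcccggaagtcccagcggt
EGLN1, chr1:231422288-231422537: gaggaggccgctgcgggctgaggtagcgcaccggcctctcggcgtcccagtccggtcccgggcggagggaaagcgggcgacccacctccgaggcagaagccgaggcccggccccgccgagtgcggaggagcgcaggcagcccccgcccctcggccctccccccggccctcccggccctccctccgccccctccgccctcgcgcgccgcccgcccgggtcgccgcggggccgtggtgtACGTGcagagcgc
ADM lies on the plus strand of chromosome 11 and held a GCGTG match that began 101 bases before its start. ANKRD37 lies on the plus strand of chromosome 4 and held 3 ACGTG matches, of which a pair overlap in the palindrome CACGTG. EGLN1 lies on the minus strand of chromosome 1 and held an ACGTG match that began 13 bases before its start. RefSeq promoters (250 bases before and 50 bases after a start) were found for 8 of the 10 members, with several starts for some. ACGTG was found in 3 of these members (ANKRD37, EGLN1 and PDK1) and in 21.4% of all 35116 promoters, GCGTG in 4 others (ADM, HIF1A, KDM3A and SLC2A1) and in 36.5%, and either motif in 48.4% of all promoters. A member was counted if any of its starts held a match, whereas the shares count single promoters, so the measures are unlike. EGLN3 held neither in this window, and SLC2A3 and VEGFA were not matched. These matches describe letters and not bound sites.

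The total count was between 17241014 and 30861943 for each library, and the upper limit that 0 counts (3 counts allowed) set on a level was 0.0959 to 0.174 CPM (counts scaled to TMM-normalized library size, as edgeR's cpm function gives them) by counting error alone. Adjusted p-values are those of the quasi-likelihood test of edgeR over all genes, after Benjamini-Hochberg. COX4I1, the targeted gene, was at 513, 501 and 462 CPM in sgCtrl libraries #1, #2 and #3, against 132, 377 and 133 CPM in sgCOX4I1 libraries #1, #2 and #3, so sgCOX4I1 #2 kept 76.7% of the sgCtrl mean where #1 and #3 kept 26.7% and 27.0%. Its log2 fold change was -1.21 (standard error, SE, of 0.29, edgeR adjusted p = 0.0512), and without sgCOX4I1 #2 it was -1.89 (edgeR adjusted p = 3.37e-06). Over all alternatives it lay between -1.89 and -0.95, with an adjusted p (edgeR, DESeq2 or limma-voom) of 0.272 at the highest. These values are of mRNA, and the counts do not show how much COX4I1 protein each library kept. The study describes immunoblots of COX4I1 in Molm13-Cas9+ cells with independent guides for both groups. It reports a reduced level of the protein with sgCOX4I1. Which blotted guide belongs to which library is not given in the sources used here. Whether sgCOX4I1 #2 kept more of the protein than the other libraries of its group was therefore not tested here. Myeloid markers were detected in every library, and PTPRC, encoding the leukocyte antigen CD45, was between 241 and 274 CPM. The summed level of the 12 myeloid markers was 3655 to 4508 CPM in sgCtrl and 4161 to 5351 CPM in sgCOX4I1 libraries. Of 10 markers of other cell types, 6 were at 0 counts in all 6 libraries, CDH5 among them. Most of the summed level of the 10 (169 to 197 CPM in sgCtrl, 185 to 220 CPM in sgCOX4I1) was PECAM1. With CDH5 at 0, the level of PECAM1 is not read as a sign of another cell type. The markers did not move as 1 group, since 8 had a log2 fold change below 0 and 4 above. MPO, a granule enzyme of immature myeloid cells, was lower in all sgCOX4I1 libraries (log2 fold change -1.06, edgeR adjusted p = 1.59e-05) and passed the threshold. LYZ, which encodes the lysozyme of monocytes and granulocytes, was at 1149, 1519 and 2099 CPM in sgCtrl #1, #2 and #3 and between 2025 and 3103 CPM in the sgCOX4I1 libraries, with a log2 fold change of 0.77 that missed the threshold in edgeR (edgeR adjusted p = 0.0534) and passed it in limma-voom (limma-voom adjusted p = 0.0493). Without LYZ the other 11 markers summed to 2392 to 2506 CPM in sgCtrl and 2135 to 2330 CPM in sgCOX4I1 libraries. The part of these marker differences in the results below was not tested. In bulk RNA, fewer cells with a transcript and less of it per cell cannot be told apart.

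SLC2A3 encodes the high-affinity glucose transporter GLUT3. Its level was 106, 119 and 136 CPM in sgCtrl libraries #1, #2 and #3, against 67.4, 62.9 and 61.3 CPM in sgCOX4I1 libraries #1, #2 and #3. Every sgCOX4I1 library lay below every sgCtrl library, and the sgCOX4I1 libraries lay closer together than the sgCtrl libraries did (SD of 3.16 against 15.0 CPM, n = 3 each). The sgCOX4I1 libraries held 55.8%, 52.1% and 50.8% of the sgCtrl mean. Library #2, with the most COX4I1 mRNA left, therefore had as little SLC2A3 mRNA as the others. Since COX4I1 protein was not read here, this does not compare SLC2A3 with the loss of the protein. The log2 fold change was -0.92 (SE 0.092), and the highest value under any alternative, leaving out single libraries included, was -0.82. That value is a description only, since SLC2A3 was chosen for its fall and the alternatives reuse the same libraries.

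SLC2A3 is found at 7919230 to 8019007 of chromosome 12 (minus strand) in GRCh38, near its close copy SLC2A14. Of the windows of 150 bases in the SLC2A3 canonical transcript, 1.88% occur unchanged in an SLC2A14 transcript, and of windows of 50 bases 23.5% do, so some reads could have been split between the genes or left uncounted. SLC2A14 was between 3.69 and 4.85 CPM in the 6 libraries, with overlapping groups and a log2 fold change of -0.04 (95% interval -0.45 to 0.36). Summing the counts of both genes gave a log2 fold change of -0.88.

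SLC2A1, which encodes the widely expressed glucose transporter GLUT1, is found at 42925353 to 42958893 of chromosome 1 (minus strand). Its level was 22.0, 22.0 and 22.4 CPM in sgCtrl libraries #1, #2 and #3, against 19.9, 16.6 and 16.4 CPM in sgCOX4I1 libraries #1, #2 and #3. The groups did not overlap, and the sgCtrl libraries differed by little (22.1 ± 0.247 CPM, SD, n = 3). The log2 fold change was -0.33 (95% interval -0.56 to -0.09), which did not pass the threshold (edgeR adjusted p = 0.139), and under the alternatives its adjusted p (edgeR, DESeq2 or limma-voom) was 0.0367 at the lowest and 0.357 at the highest. None of SLC2A1's 50-base windows occurs in SLC2A3. The 12 other sugar transporters of the SLC2A family were read beside them. Of these, 7 were tested and the other 5 had 0 counts in every library. Of the 7, 0 passed the edgeR test, 0 had an unadjusted p under 0.05, DESeq2 and limma-voom called 0, and their log2 fold changes had a median of 0.22. SLC2A4 and SLC2A6 had the largest, at 0.60 (edgeR adjusted p = 0.537) and 0.30 (edgeR adjusted p = 0.589).

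ADM encodes adrenomedullin, a secreted vasodilator peptide, and spans 10305073 to 10307397 of chromosome 11. It was at 13.5, 18.6 and 21.0 CPM in sgCtrl libraries #1, #2 and #3, against 8.59, 12.1 and 7.58 CPM in sgCOX4I1 libraries #1, #2 and #3. The groups did not overlap, although sgCOX4I1 #2, the highest of its group at 68.7% of the sgCtrl mean, lay just below sgCtrl #1. The log2 fold change was -0.93 (SE 0.19), and it ranged from -1.13 to -0.78 over the alternatives. Nothing is read from this range, since ADM was chosen for its fall. These values rest on 193 to 428 counts for each library.

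ANKRD37 encodes a small ankyrin repeat protein and is a direct HIF target, with its gene at 185396021 to 185400628 of chromosome 4. Its level was 7.19, 6.89 and 6.04 CPM in sgCtrl libraries #1, #2 and #3, against 4.68, 3.49 and 3.10 CPM in sgCOX4I1 libraries #1, #2 and #3. Again the groups did not overlap, and sgCOX4I1 #1 was the highest of its group at 69.7% of the sgCtrl mean. The log2 fold change was -0.84 (SE 0.20), on 60 to 132 counts for each library. It ranged from -1.03 to -0.70 over the alternatives, from which nothing is read, since ANKRD37 was chosen for its fall. Of its exonic bases, 40.3% also belong to exons of UFSP2 on the opposite strand, and the strand setting of the counting is not given in the sources used here. UFSP2 was between 8.25 and 11.3 CPM with overlapping groups, at a log2 fold change of -0.10 (95% interval -0.42 to 0.21).

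**Figure D1:**
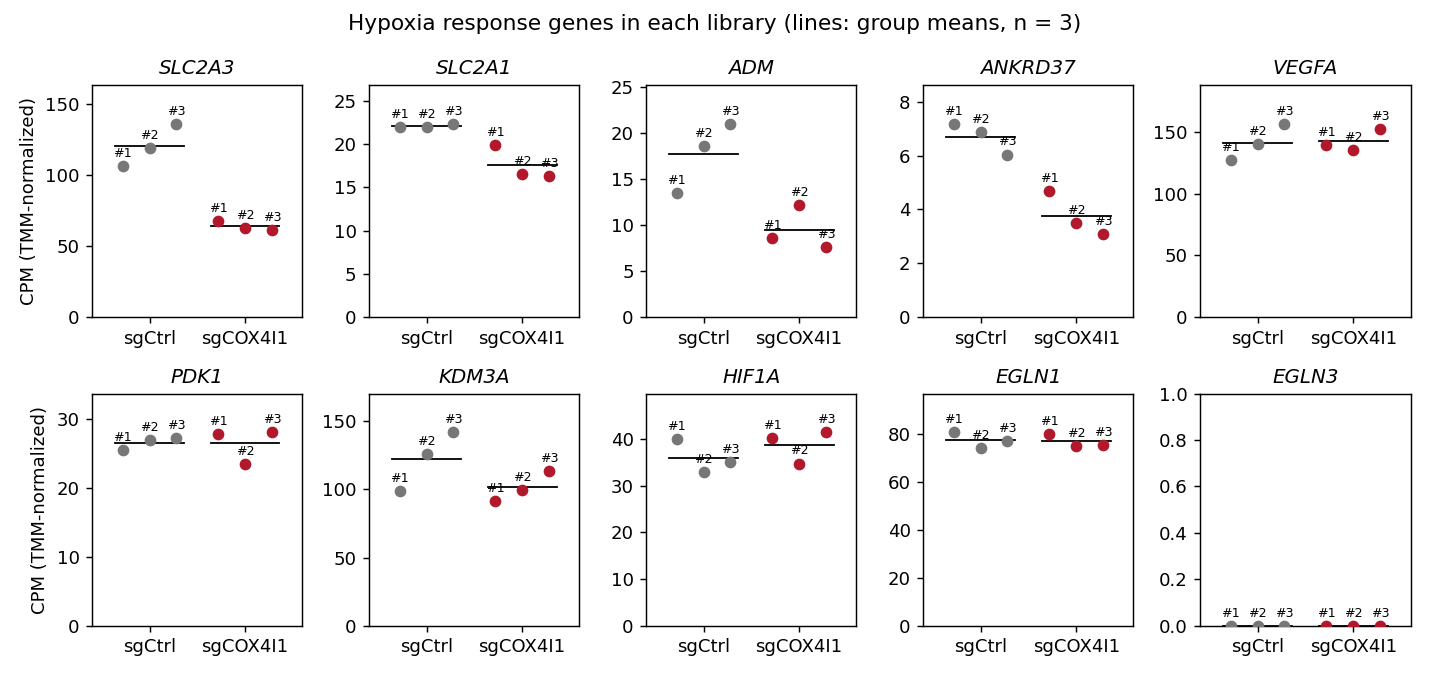
Level of each of the 10 hypoxia response genes in CPM of the TMM-normalized library (y axes, each from 0 and scaled to its gene), with 1 point for each library (grey sgCtrl, red sgCOX4I1, labelled #1 to #3) and a line at the group mean (n = 3). SLC2A3 lies between 106 and 136 CPM in sgCtrl and between 61.3 and 67.4 CPM in sgCOX4I1, ADM, ANKRD37 and SLC2A1 also show groups that do not overlap, the groups of VEGFA, PDK1, KDM3A, HIF1A and EGLN1 overlap, and EGLN3 is at 0.

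VEGFA, which encodes the main angiogenic growth factor, is among the most used HIF targets and is found at 43770184 to 43786487 of chromosome 6 (plus strand). It was at 127, 141 and 157 CPM in sgCtrl libraries #1, #2 and #3, against 139.7, 136 and 153 CPM in sgCOX4I1 libraries #1, #2 and #3. All sgCOX4I1 values lay inside the range of the sgCtrl libraries. The log2 fold change was 0.01 (95% interval -0.17 to 0.20, edgeR adjusted p = 0.966).

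PDK1 encodes a kinase that inactivates pyruvate dehydrogenase and so limits the use of pyruvate in the citric acid cycle, and is found at 172555373 to 172608669 of chromosome 2 (plus strand). Its level was 25.5, 27.0 and 27.3 CPM in sgCtrl libraries #1, #2 and #3, against 27.9, 23.6 and 28.1 CPM in sgCOX4I1 libraries #1, #2 and #3. The sgCOX4I1 libraries lay on both sides of the sgCtrl libraries, and the log2 fold change was 0.00 (95% interval -0.21 to 0.21, edgeR adjusted p = 0.996). Of the 11 other genes of pyruvate dehydrogenase and its regulators, 10 were tested, 0 passed the edgeR test, and DESeq2 and limma-voom called 0. Of the 10, 7 were above 0 and 3 below, where 50.6% of all genes tested were below. The median log2 fold change over the 10 was 0.01. An unadjusted p under 0.05, which is not read as a result, was found for 2. The 2 genes were DLD and DLAT, subunits of the enzyme complex, with log2 fold changes of 0.27 (edgeR adjusted p = 0.0911) and 0.23 (edgeR adjusted p = 0.145).

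KDM3A encodes a histone demethylase that acts on methylated lysine of histone H3, and is found at 86440647 to 86492716 of chromosome 2 (plus strand). It was at 99.1, 126 and 142 CPM in sgCtrl libraries #1, #2 and #3, against 91.5, 99.7 and 114 CPM in sgCOX4I1 libraries #1, #2 and #3. The groups overlapped, since sgCtrl #1 lay below sgCOX4I1 #2 and #3. The log2 fold change was -0.27 (95% interval -0.52 to -0.02, edgeR adjusted p = 0.255). Without sgCtrl #1 it was -0.40 and passed the threshold (edgeR adjusted p = 0.0228), and its edgeR, DESeq2 or limma-voom adjusted p was 0.0106 at the lowest and 0.587 at the highest. Among 11 other JmjC demethylases, all tested, 0 passed the edgeR test, and DESeq2 and limma-voom called 0. An unadjusted p under 0.05, which is not read as a result, was found for 2. Of the 11, 8 were below 0, where 50.6% of all genes tested were, and the median log2 fold change was -0.05. KDM6A and KDM6B had the largest values, with log2 fold changes of -0.28 (edgeR adjusted p = 0.206) and -0.21 (edgeR adjusted p = 0.361).

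HIF1A, the oxygen-regulated subunit, at 61695513 to 61748259 of chromosome 14 (plus strand), was at 40.0, 32.8 and 35.2 CPM in sgCtrl libraries #1, #2 and #3, against 40.2, 34.7 and 41.4 CPM in sgCOX4I1 libraries #1, #2 and #3. The groups overlapped, and the log2 fold change was 0.11 (95% interval -0.11 to 0.33, edgeR adjusted p = 0.619). EGLN1, which encodes the main HIF prolyl hydroxylase PHD2 and spans 231363751 to 231422287 of chromosome 1, was at 80.6, 74.0 and 77.1 CPM in sgCtrl libraries #1, #2 and #3, against 80.0, 75.1 and 75.5 CPM in sgCOX4I1 libraries #1, #2 and #3. These libraries were nearly level, and the log2 fold change was -0.01 (95% interval -0.17 to 0.15, edgeR adjusted p = 0.976). Of the exonic bases of EGLN1, 55.8% also belong to a read-through gene annotated on the same strand in GENCODE 44, so its reads may be undercounted if the authors' annotation held that gene. EGLN3, which encodes the hydroxylase PHD3 and is itself a strong HIF target in many cells, had 0 counts in all 6 libraries and was not detectable at this depth. It is found at 33924227 to 34462774 of chromosome 14 (minus strand). For HIF1A, SLC2A1, VEGFA and PDK1, non-coding genes shared at most 7.51% of exonic bases each.

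**Figure D2:**
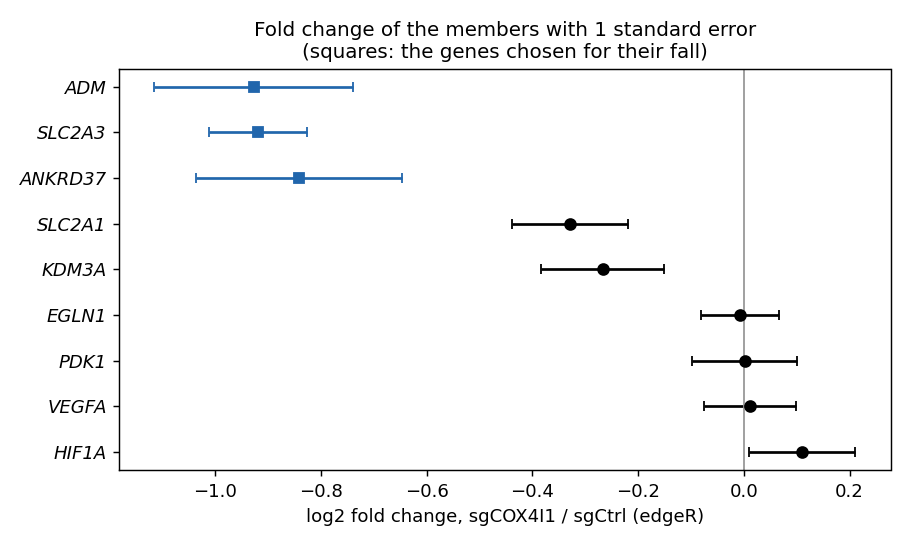
Log2 fold change of sgCOX4I1 against sgCtrl (x axis) for the 9 members with counts, from edgeR's quasi-likelihood fit with bars of 1 standard error (SE), and squares for the genes chosen for their fall. ADM, SLC2A3 and ANKRD37 lie between -0.93 and -0.84, SLC2A1 and KDM3A at -0.33 and -0.27, and the other 4 between -0.01 and 0.11.

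In the edgeR fit 247 of the 11861 genes tested had an adjusted p under 0.05, or 2.08%, of which 1.02% of all tested were lower and 1.06% higher. All 9 members with counts were tested, and each had at least 60 counts in every library. SLC2A3, ADM and ANKRD37 were among the genes lower at that threshold, as their choice had fixed. Of the other 6 tested members, 0 passed it, while SLC2A1 and KDM3A had an unadjusted p under 0.05, and DESeq2 and limma-voom called 0 of the 6. The share of all genes tested with an unadjusted p under 0.05 is not given here. Counts at that level, for members or for any list, are therefore not read as a result. With the 2-fold change of the study's methods added, 0.202% of all genes passed, and no member reached that fold. Of the 6 members chosen by function, the groups of 1, SLC2A1, did not overlap, with all sgCOX4I1 libraries lower, where 10.4% of all genes tested separated in that direction and 21.6% in either. A log2 fold change below 0 was found for 3 of these 6 and for 50.6% of all genes tested, so neither count stands out for them. The groups of SLC2A3, ADM and ANKRD37 did not overlap either, and since these genes were chosen for being lower, nothing is read from their separation or sign.

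Since different genes can be compared only per length, the CPM of each member was divided by its exonic length in GENCODE 44. In sgCtrl libraries SLC2A3 was the highest member, at 16.7 ± 2.07 CPM per kilobase (SD, n = 3 libraries), followed by EGLN1 at 14.4 ± 0.613, whose range it overlapped. VEGFA, KDM3A, ADM and HIF1A followed at 9.82 ± 1.03, 9.21 ± 1.63, 7.60 ± 1.66 and 6.99 ± 0.714 CPM per kilobase, each overlapping its neighbour in this order. SLC2A1 at 3.34 ± 0.0373, ANKRD37 at 2.98 ± 0.265 and PDK1 at 1.79 ± 0.0638 CPM per kilobase did not overlap their neighbours. In sgCOX4I1 libraries SLC2A3 was at 8.81 ± 0.436 CPM per kilobase, below EGLN1 (14.3 ± 0.506) and VEGFA (9.89 ± 0.620) in every library and overlapping KDM3A (7.64 ± 0.849). The order depends on the length used. With the canonical transcript of each gene, VEGFA came first in sgCtrl libraries at 39.3 ± 4.12 CPM per kilobase and SLC2A3 second at 31.6 ± 3.93, and SLC2A3 in sgCOX4I1 libraries was at 16.7 ± 0.825.

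The libraries of a group did not rank the members alike. Among sgCtrl libraries, #1 was the lowest and #3 the highest for SLC2A3, ADM, VEGFA, PDK1, KDM3A and SLC2A1, whereas #1 was the highest for HIF1A, EGLN1 and ANKRD37. Among sgCOX4I1 libraries, #1 was the highest for SLC2A3, SLC2A1, ANKRD37 and EGLN1, #2 for ADM, and #3 for VEGFA, KDM3A, PDK1 and HIF1A. COX4I1 mRNA was highest in sgCOX4I1 #2, so of the members only ADM shared its highest library. This ranks the libraries by COX4I1 mRNA and not by the protein left. Across the 6 libraries, the tested genes whose log2 CPM was most like that of SLC2A3 by Pearson's r were SLFNL1 (0.993), RBAK-RBAKDN (0.991), SREBF2 (0.991), USF1 (0.990) and MTSS1L (0.986). All 5 were lower in every sgCOX4I1 library than in every sgCtrl library. Likeness to a gene chosen for its fall largely fixed this, since the 6 points of each correlation share the same 2 groups and libraries. In the order named, their log2 fold changes were -1.33, -0.42, -0.26, -0.24 and -0.43. SLFNL1 was below 1 CPM in every library, and RBAK-RBAKDN is a read-through gene that shares sequence with RBAK.

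**Figure D3:**
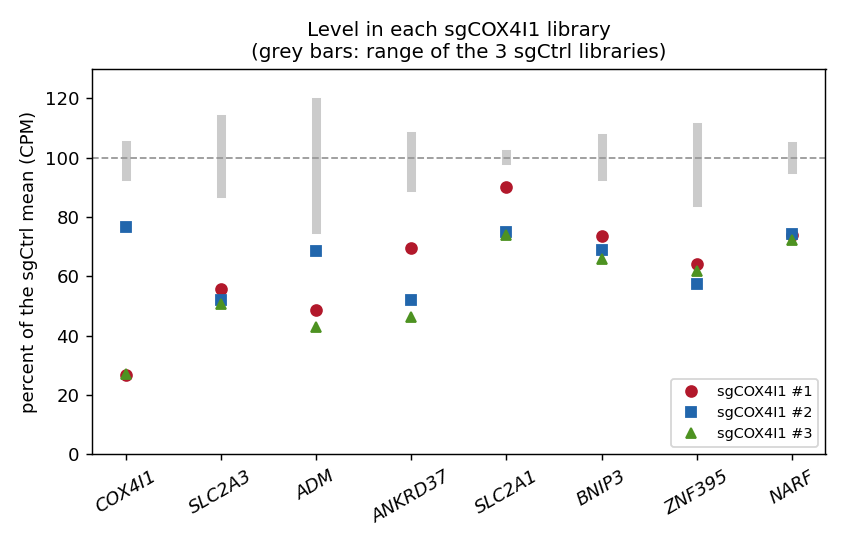
Level in each sgCOX4I1 library as a percent of the sgCtrl mean in CPM (y axis, from 0) for COX4I1, the 4 members whose groups did not overlap, and BNIP3, ZNF395 and NARF, with grey bars for the range of the 3 sgCtrl libraries. COX4I1 mRNA is at 26.7% and 27.0% in sgCOX4I1 #1 and #3 and at 76.7% in #2, while SLC2A3 mRNA lies between 50.8% and 55.8% in all 3. Protein levels are not shown.

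The other genes of the pathway were read from lists in the same fit, 118 genes in 7 lists, of which 91 were tested and 4 passed the threshold, 3 lower and 1 higher. The lists were chosen with earlier results of these data known, so counts over them are a description. Over all genes tested, 2.08% passed, 1.02% lower and 1.06% higher. The groups of 18 of the 91 did not overlap, 8 lower and 10 higher, where 21.6% of all genes tested separated in either direction. The 17 other HIF subunits and oxygen-sensing factors held no gene that passed the edgeR test among 15 tested, with 1 at an unadjusted p under 0.05 and 0 called by DESeq2 or limma-voom. Their median log2 fold change was 0.06, against -0.00 over all genes tested. EPAS1, which encodes HIF-2alpha, was at 31.3, 32.5 and 32.7 CPM in sgCtrl libraries #1, #2 and #3, against 34.2, 42.8 and 38.0 CPM in sgCOX4I1 libraries #1, #2 and #3. All its sgCOX4I1 libraries were higher, as for 11.3% of all genes tested, at a log2 fold change of 0.25 (edgeR adjusted p = 0.192). CUL2, the scaffold of the VHL ligase, had a log2 fold change of 0.19 (edgeR adjusted p = 0.345). VHL itself was at 61.1, 64.4 and 70.5 CPM in sgCtrl libraries #1, #2 and #3, against 61.3, 76.4 and 69.2 CPM in sgCOX4I1 libraries #1, #2 and #3. HIF1AN, the asparagine hydroxylase that blocks HIF coactivators, was at 79.8, 77.9 and 82.0 CPM in the sgCtrl libraries and at 74.99, 74.96 and 80.8 CPM in the sgCOX4I1 libraries. EGLN2, the third prolyl hydroxylase, was at 9.26, 10.8 and 11.1 CPM in the sgCtrl libraries and at 8.95, 9.59 and 13.7 CPM in the sgCOX4I1 libraries. The groups overlapped for each of VHL, HIF1AN and EGLN2.

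Among 35 other non-glycolytic HIF targets, 25 were tested and 3 passed the threshold, all lower, where 1.02% of all genes tested passed lower. This list was chosen with earlier results of these data known, so its counts beside that share are a description and not a test. DESeq2, which called 428 of 15168 genes, called the 3 that passed in edgeR and HILPDA. The calls of limma-voom, 252 of 11861 genes, held the same 3. Of the 25, 15 were below 0, where 50.6% of all genes tested were, with a median log2 fold change of -0.10. An unadjusted p under 0.05 was found for 8, which is not read as a result, since the share over all genes is not given. ZNF395, a zinc finger protein gene induced by hypoxia, was at 42.5, 55.0 and 52.3 CPM in sgCtrl libraries #1, #2 and #3, against 32.0, 28.7 and 30.9 CPM in sgCOX4I1 libraries #1, #2 and #3. BNIP3, a mitophagy receptor of the outer mitochondrial membrane, was at 47.6, 54.0 and 50.3 CPM in the sgCtrl libraries and at 37.3, 34.9 and 33.4 CPM in the sgCOX4I1 libraries. NARF, which encodes a prelamin A binding protein, was at 54.2, 58.4 and 56.2 CPM in the sgCtrl libraries and at 41.6, 41.8 and 40.7 CPM in the sgCOX4I1 libraries. For none of these 3 genes did the groups overlap. Over the 25 tested, the groups of 5 separated lower and of 1 higher, where 10.4% and 11.3% of all genes tested did. HILPDA, which encodes a lipid droplet protein, was between 21.5 and 25.05 CPM in the sgCtrl libraries and between 11.5 and 18.9 CPM in the sgCOX4I1 libraries, with a log2 fold change of -0.57 (edgeR adjusted p = 0.0691, DESeq2 adjusted p = 0.0171). The log2 fold changes that passed were -0.71 for ZNF395 (SE 0.10, edgeR adjusted p = 0.00349), -0.53 for BNIP3 (SE 0.086, edgeR adjusted p = 0.00809) and -0.44 for NARF (SE 0.077, edgeR adjusted p = 0.0116) in the edgeR test. Without sgCtrl #2 none of the 3 passed, with adjusted p-values of 0.0686 for ZNF395, 0.100 for BNIP3 and 0.108 for NARF from the same edgeR test, and the direction did not change. BNIP3 and NARF also missed the threshold without sgCOX4I1 #2 (adjusted p = 0.0565 and 0.0577), and NARF without sgCOX4I1 #3 (adjusted p = 0.0541), in the same edgeR test.

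The 18 glycolytic HIF targets were all tested. In the edgeR test 0 of them passed, while DESeq2, which called 428 of 15168 genes, called 1 and limma-voom 0. An unadjusted p under 0.05 was found for 4, which is not read as a result. Of the 18, 10 were above 0 and 8 below, where 50.6% of all genes tested were below, with a median log2 fold change of 0.01. ENO2, an enolase isoform, and PFKFB4, which sets the level of fructose 2,6-bisphosphate, had the largest values, at -0.87 (edgeR adjusted p = 0.0952) and -0.72 (edgeR adjusted p = 0.0971). PFKFB4 was the gene that DESeq2 called. The summed level of the 18 genes was 9456 to 9910 CPM in sgCtrl and 9369 to 10269 CPM in sgCOX4I1 libraries.

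VEGF and adrenomedullin ligands and receptors held 14 genes, of which 5 were tested (median log2 fold change 0.18) and 1 passed the threshold. This was ADM2, which encodes the adrenomedullin-related peptide intermedin, at 7.25, 7.16 and 5.80 CPM in sgCtrl libraries #1, #2 and #3, against 14.7, 15.2 and 13.2 CPM in sgCOX4I1 libraries #1, #2 and #3. It rose in every sgCOX4I1 library, opposite in direction to ADM, with a log2 fold change of 1.09 (SE 0.14, edgeR adjusted p = 0.00189), and it passed the threshold under every alternative tried, with an adjusted p of at most 0.0300. FLT4, a receptor of lymphatic VEGF, had a log2 fold change of 0.24 (edgeR adjusted p = 0.520). CALCRL, the receptor that adrenomedullin peptides share, was between 0 and 0.271 CPM and was not tested.

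**Figure D4:**
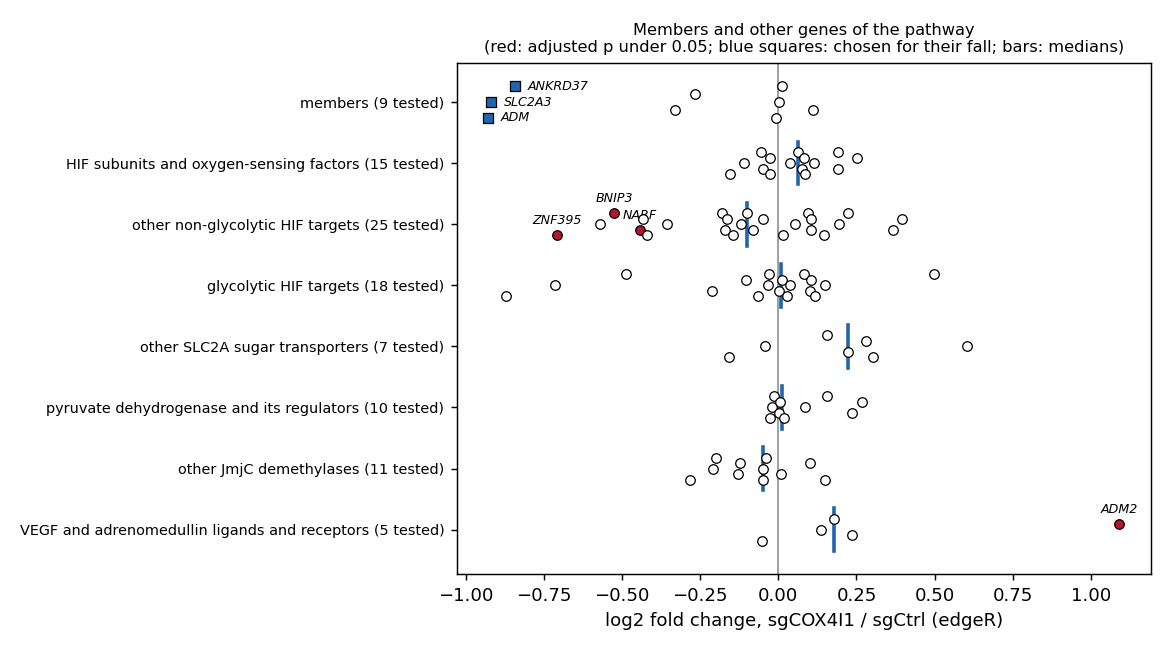
Log2 fold change of sgCOX4I1 against sgCtrl from edgeR (x axis) for each tested gene of the members and of 7 other lists (rows, with the number tested), with red circles for an adjusted p under 0.05, blue squares for the genes chosen for their fall and blue bars for the median of each other list. ZNF395, BNIP3 and NARF lie between -0.71 and -0.44, ADM2 lies at 1.09, and the medians of the other lists lie between -0.10 and 0.22.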

How the data were processed

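RNA-seq was performed on 6 Molm13-Cas9+ libraries (3 sgCtrl, 3 sgCOX4I1) grouped by the deposited labels. The authors deposited 1 table of raw read counts per gene symbol. The submitters' processing notes name bcl2fastq 2.20.0.422, STAR 2.6.0a, edgeR and GRCh38, and the column names point to STAR alignment, marked duplicates and HTSeq, whereas the methods of the study describe Bowtie2 and RSEM. Annotation version and strand setting are not given in the sources used here. Counts were filtered with filterByExpr (11861 of 19845 symbols kept), TMM-normalized and tested once over all genes with edgeR 4.0.16 (glmQLFit, glmQLFTest) in R 4.3.3, with Benjamini-Hochberg adjustment and a threshold of 0.05. DESeq2 1.42.0, limma-voom (limma 3.58.1), other filters and scalings, a replicate block and leaving out each library were alternatives. An exact permutation test of 3 against 3 libraries cannot go below p = 0.1 (two-sided). Limits at 0 counts used 3 counts and cover counting error only. The scripts were tested on simulated counts. The p-values set the difference between the groups against the spread within them, over these 6 libraries only. Positions and lengths came from GENCODE 44 on GRCh38, and promoters from RefSeq on GRCh38.p14.

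The members and lists were chosen with earlier results of these data known. Named were all members, in each other list the genes past the threshold (at most 5, by smallest p) or, where fewer than 2 passed, the 2 with the largest log2 fold changes, COX4I1, SLC2A14, EPAS1, EGLN2, VHL, HIF1AN, the 5 genes most like SLC2A3, and genes whose exons overlap those of a member. MPO, LYZ, PTPRC, PECAM1 and CDH5 were marker genes, named after their values were seen, as were CALCRL and the genes that another tool called.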

Additional observations from a re-analysis of the deposited data

How the results depend on the processing

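Over 15 alternatives, SLC2A1, KDM3A and HIF1A kept their direction, HIF1A with a log2 fold change of 0.05 to 0.19. SLC2A3, ADM and ANKRD37 kept theirs too. Since they were chosen for their fall and the alternatives reuse the same libraries, nothing is read from that or from their ranges. Genes with an adjusted p under 0.05 numbered 247, 428 with DESeq2, 537 with no filter on low counts, and 24 to 561 with 1 library left out (24 without sgCtrl #2, 51 without sgCOX4I1 #2, 89 without sgCOX4I1 #3 and 561 without sgCtrl #1). With at least 2-fold change they numbered 24, 41 with no filter, and 9 to 50 with 1 library left out. Members past the threshold numbered 3, all chosen for being lower, and 1 to 4 with 1 library left out. These counts include the chosen genes and say nothing of their stability. Of the members chosen by function, KDM3A passed without sgCtrl #1 and none passed with any other library left out. Other pathway genes past it numbered 4, 9 with no filter, and 1 to 11 with 1 library left out. The cause was not tested.

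A replicate block on the library number gave 1416 of the 12036 genes tested in that fit, 57 of them at least 2-fold. Among them were 5 of the 10 members, SLC2A1 and KDM3A beside the 3 chosen for their fall. Of the 118 other pathway genes, 16 passed. These counts are not read as a result about the members, since many more genes passed in that fit. Libraries with the same number had deviations that correlated at 0.38, -0.02 and 0.29, and 2 of 3 numbers correlated best with themselves. These values do not settle whether the numbers mark pairs, and the main fit used no block. Whether SLC2A1 and KDM3A pass depends on that choice (edgeR adjusted p with the block = 0.0367 and 0.0106).

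Log2 fold changes near 0 changed sign. EGLN1 was 0.00599 with library size alone and -0.0368 to 0.0231 with 1 library left out. PDK1 was -0.00184 with the block, -0.0373 with counts thinned to the smallest library and -0.0437 to 0.0759 with 1 library left out. VEGFA was -0.0602 (without sgCtrl #1) to 0.0944 with 1 library left out, and -0.0405 without sgCOX4I1 #3. At 60 to 132 counts for each library, ANKRD37 is the member most limited by depth after EGLN3.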
